A study of Gallus gallus with 48 samples.

Results

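The liver libraries of chickens were set against the brain, heart and lung libraries of the same study. They are 12 of its 48 RNA-seq libraries, taken by their tissue label, and the 36 others hold 12 libraries each of brain, heart and lung. In every tissue the libraries fall into 4 groups of 3. At 3300 m these were TC, from Tibetan chickens, and HLC, from lowland birds, and at 670 m LTC, from Tibetan birds, and LC, from lowland birds. What HLC and LTC stand for was read from their letters and the altitude given with them. All 4 groups were untreated by any agent that the labels name, and the sex, age, breed and time spent at an altitude are not given. Whether the 3 libraries of a group are from different animals is not stated, so p-values cover the spread among libraries alone, which may be technical.

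The liver turns over amino acids, lipids and foreign compounds for the whole body, stores sugar as glycogen and secretes most plasma proteins. In birds it is also the main site of fatty acid synthesis, and in laying hens it makes the yolk precursors. Most of its mass is hepatocytes, an epithelial cell, beside sinusoidal endothelium, bile duct cells and resident macrophages. The libraries were made from whole tissue, in which fewer cells of a type and less RNA per cell cannot be told apart.

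Values are FPKM, fragments per length of transcript and per total of mapped fragments, a level that can be compared between genes. Differences were tested as log2(FPKM + 1), liver minus the mean of brain, heart and lung unless another tissue is named, with limma, a linear model fitted over all genes at once, and the 4 groups as a block. A difference on this scale understates the change of genes with low FPKM. A call is an adjusted p under 0.05 after Benjamini-Hochberg adjustment over the 12424 genes that reached 1 FPKM in at least 12 of the 48 libraries. Symbols could be given to 1037 of the tested genes, and only these could be described by what they do. Most defining secreted products of hepatocytes, such as albumin, are not among the named genes: of 42 listed plasma protein genes 1 could be tested by name.

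As whole profiles, the liver libraries stood apart from the other tissues. The rank correlation over genes, which are not independent replicates, was 0.928 to 0.982 between liver libraries, against 0.639 to 0.698 with lung, 0.591 to 0.672 with heart and 0.372 to 0.505 with brain. All 48 libraries correlated best with their own tissue. Liver libraries held fewer genes at 1 FPKM or more, 8498 to 9675 (median 9431), against 10991 to 11241 in brain, 8980 to 10350 in heart and 10824 to 11325 in lung. The mean was 9264 genes in liver and 10642 in the 36 others (permutation test, 2-sided, adjusted p = 5e-05 over 16 tests). That value comes from the smallest p that 100000 resamples can give. Against heart alone the means were 9264 and 9676.5 (same test, adjusted p = 0.0405). The 100 most abundant genes took 65.8% to 74.9% of the summed FPKM of a liver library and 44.8% to 71.9% of the others. The means were 69.9% and 59.8% (adjusted p = 9e-05). For the 10 most abundant the means, 39.7% and 35.2%, were not shown to differ (same test, adjusted p = 0.143). The brain mean of that share was 43.4% (adjusted p = 0.176 against liver). To reach 50% of the summed FPKM took 11 to 33 genes in a liver library and 62 to 160 in a lung library (adjusted p = 5e-05), while the ranges of liver and brain (8 to 73) overlapped and their means were not shown to differ (adjusted p = 0.384). Read depth is not given and was estimated only relative to the median library, at 0.856 to 1.07 in liver and 0.775 to 1.27 in the others, with estimates that moved by up to 1.04 on the log2 scale with the library used as the base.

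Of the 12424 genes, 2221 (17.9%) were higher in liver than in the mean of the other tissues and 8731 (70.3%) were lower, and 1472 were not called. With a difference of at least 2-fold these were 1160 (9.34%) and 4139 (33.3%). The median difference of all genes was -0.67. This imbalance moved with the scaling: of the called genes 20.3% were higher as deposited, 36.7% after scaling every library to the same upper quartile (3835 higher, 6611 lower, median -0.27) and 42.5% after quantile normalization (4377 higher, 5929 lower, median -0.13). Differences of single genes and lists can be compared with the median of -0.67, which itself moved with the scaling. Whether it is a shift shared by all genes was not tested. Against single tissues the deposited values gave 1778 genes (14.3%) higher and 9025 (72.6%) lower than lung, 2822 (22.7%) and 7792 (62.7%) with brain, and 3336 (26.9%) and 5666 (45.6%) with heart. A gene had its lowest median in liver in 6323 cases (50.9%) and its highest there in 1386 (11.2%).

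The genes that set liver apart from each of the other tissues were fewer and steeper. At least 2-fold higher than brain, heart and lung each were 670 genes (5.39%), with a median difference of 3.36 and a median liver level of 52.9 FPKM. In 531 of them every liver library lay above all 36 others, whereas 554 genes (4.46%) did so among all tested. Their other medians all lay under 1 FPKM in 177. The next highest tissue was lung for 315, brain for 256 and heart for 99, where it was so for 761, 417 and 208 of all genes highest in liver. At least 2-fold lower than each were 954 genes (7.68%), with a median difference of -2.17. Their number was 1970 with a pseudocount of 0.1, 567 with upper quartile scaling and 387 with quantile normalization, whereas that of the 670 higher genes stayed within 1.5 times, so whether more genes were lower or higher than each tissue depended on the scaling. In 644 of these every liver library lay below all others (1110 genes, 8.93%, among all tested). The highest tissue of the 954 was brain for 424, lung for 360 and heart for 170. Of all genes with their lowest median in liver it was brain for 2816, lung for 2756 and heart for 748. Among the 1037 genes with a symbol 40 (3.86%) were higher and 103 (9.93%) lower than each.

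The most liver-bound transcript with a symbol was listed as FABP1 (ENSGALG00000004141), a cytosolic fatty acid binding protein. The symbol list puts it on chromosome 23 while RefSeq has its FABP1 on chromosome 4, so which member of the family it is was not established. It reached 3277 to 16058 FPKM in the 12 liver libraries (median 4313), against 0.525 to 23.5 in brain, 0 to 25.6 in heart and 0 to 21.1 in lung. No other library came near the liver range, and the difference was 10.59 (SE 0.38, adjusted p = 7.3e-29). Within liver the 3 TC libraries stood apart with 16058, 13598 and 13019 FPKM, whereas the 9 other livers held 3277 to 4800. The altitude difference in liver was not shown to depart from that in the other tissues for this gene (adjusted p = 0.71). A pair of genes without a symbol had differences of the same size: ENSGALG00000019845 had 4528 to 15717 FPKM in liver (median 7696, difference 10.86) and ENSGALG00000009266 had 3629 to 7493 (median 5768, difference 10.83).

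Small amounts of these 3 transcripts appeared together in a few libraries of other tissues. At least 1 of them reached 10 FPKM in 5 of the 36 other libraries (brain LTC 3, heart LTC 2, lung HLC 2, lung LC 1 and lung TC 2), and all 3 did so in 4 of these. The highest values were 31.5 FPKM for ENSGALG00000019845, 34.8 for ENSGALG00000009266 and 25.6 for FABP1, or 0.410%, 0.603% and 0.594% of the liver medians. Without these 5 libraries the genes at least 2-fold higher or lower than each tissue numbered 667 and 947, and no named gene changed its call against the mean of the others, nor did it when any 1 of the 48 libraries was left out, as long as the gene still passed the filter.

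**Figure D1:**
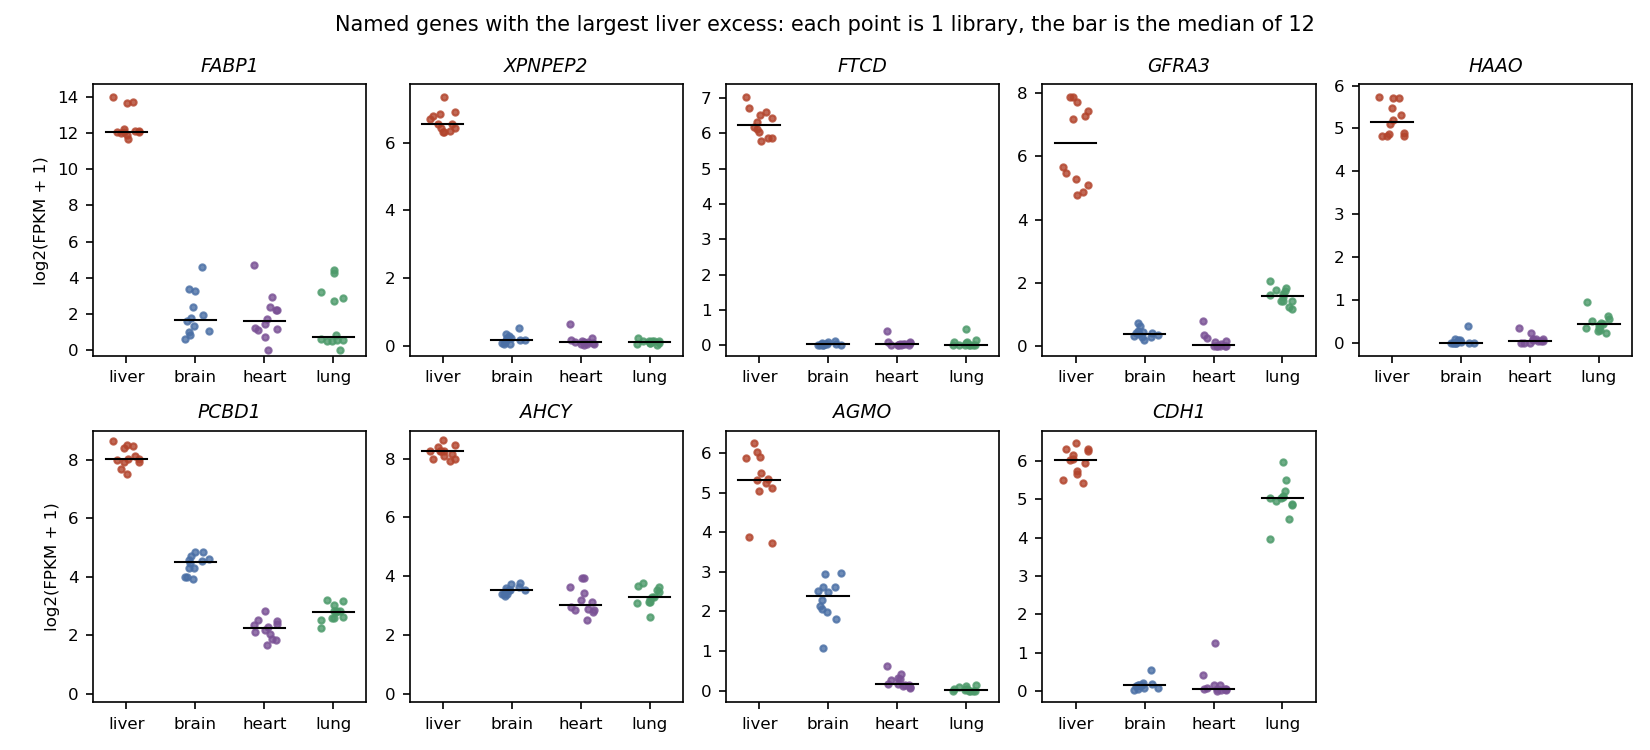
log2(FPKM + 1) of the named genes with the largest liver excess, by tissue, in liver, brain, heart and lung. Each point is 1 library and each bar the median of 12. The liver points lie above all others in every panel except CDH1, where the highest lung library (61.8 FPKM) reaches into the liver range of 41.9 to 87.1, and the panel FABP1 shows the gene listed under that symbol on chromosome 23.

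Most tested genes of amino acid and one-carbon breakdown were higher in liver. Of 53 listed genes 19 could be tested, and 16 were higher, 13 of them at least 2-fold, where 14.9% and 7.23% of all tested genes with a symbol were so, while HIBADH (-0.24) and AASS (-0.58) were lower and MTHFD1L (-0.05) was not called. The median difference was 1.62 (2.14 with upper quartile scaling, 1.85 with quantile normalization), and 10 of the 19 were at least 2-fold higher than each other tissue. A gene seen in liver alone passes the filter only through the liver libraries, in which it had to be high, so the counts of this and the other liver lists are a description. The same holds for the difference and p-value of each such gene. FTCD, which breaks down a histidine product and loads its one-carbon unit on folate, had 53.9 to 130 FPKM in liver (median 74.9), against at most 0.0781 in brain, 0.337 in heart and 0.381 in lung (6.23, SE 0.07, adjusted p = 2.1e-49). HAAO, an enzyme of tryptophan breakdown towards NAD, had 27.1 to 52.3 FPKM (median 34.7) in liver and stayed under 1 FPKM in every other library (5.004, SE 0.08). Both thus exceeded 1 FPKM in liver alone.

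Other genes of this group were high in liver above a measurable level elsewhere. AHCY, which removes S-adenosylhomocysteine after methylation, had 241 to 397 FPKM in liver (median 304), against medians of 10.5 in brain, 7.17 in heart and 8.73 in lung (4.89, SE 0.10). ADK, the adenosine kinase that clears the adenosine AHCY releases, had 259 to 468 FPKM (median 332), against medians of 38.1, 14.8 and 12.4 in brain, heart and lung (4.12, SE 0.12). PCBD1, which recycles the cofactor of phenylalanine hydroxylase, had 180 to 395 FPKM (median 257), against 21.9, 3.69 and 5.93 (4.96, SE 0.10). For these 3 genes no other library reached the lowest liver library. QDPR, which restores the same cofactor, was higher by 2.63, SDSL, a serine dehydratase-like enzyme, by 3.23, and DPYD, which breaks down pyrimidines, by 2.43. ABAT, which breaks down the transmitter GABA, was higher than the mean of the others (1.62).

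Among genes of lipid and sterol metabolism 12 of 48 could be tested, with a median of 1.43 (1.97 with upper quartile scaling, 1.5 with quantile normalization). Of these 8 were higher (7 at least 2-fold), 3 lower (GGPS1, CHPT1 and CH25H) and SGPL1 not called. Beside them, 14.9% of all tested genes with a symbol were higher (7.23% at least 2-fold) and 75.9% lower. The list median fell to 0.5 without brain, where 6 were higher (5 at least 2-fold) and 3 lower. It was 1.11 without heart and 1.55 without lung. Of the 12 genes 4 were at least 2-fold higher than each other tissue. LCAT, the plasma enzyme that esterifies the cholesterol of lipoproteins and the single plasma protein gene tested, had 79.6 to 264 FPKM in liver (median 132), against medians of 27.3 in brain, 2.55 in heart and 13.02 in lung (3.62, SE 0.16). AGMO, which cleaves ether lipids with the same cofactor that PCBD1 recycles, had 12.3 to 74.7 FPKM (median 39.0), with brain next at 1.11 to 6.84 and heart and lung under 1 FPKM (4.41, SE 0.14). MFSD2A, a carrier of lysophospholipids, had a median of 46.2 FPKM (12.1 to 98.7), against 12.9, 1.02 and 4.22 in brain, heart and lung (2.88, SE 0.17), and its lowest liver library fell into the brain range. The liver excess of LCAT and AGMO, but not of MFSD2A, thus held in every library.

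CD36 and CH25H had their highest levels outside liver. CD36, a receptor for fatty acids, had 46.8 to 127 FPKM in liver (median 82.1), above lung (median 15.5) and brain (0.235) but below heart (183 to 513, median 339), where the difference was -2.13. CH25H, which makes 25-hydroxycholesterol, had a median of 0.479 FPKM in liver, against 2.24 in brain, 2.16 in heart and 16.6 in lung (-1.90, SE 0.15).

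Genes that handle foreign compounds, metals and retinoids were also high. Of 34 listed 8 could be tested, with a median of 2.25 (2.78 and 2.14). In this list 7 were higher (6 at least 2-fold), where 14.9% and 7.23% of all tested genes with a symbol were so. None was lower, and CBR4 was not called (0.01). CYB5A, the electron donor of many microsomal enzymes including P450s, had 474 to 816 FPKM in liver (median 528), against medians of 22.4, 32.4 and 122 in brain, heart and lung (3.59, SE 0.09). PAPSS2, which makes the sulphate donor used in conjugation, had a median of 42.8 FPKM (27.2 to 158), against 5.99, 3.58 and 7.71 (3.09, SE 0.12). AHR, the receptor for dioxin-like compounds, had 11.6 to 25.2 FPKM (median 20.7), and its highest value elsewhere, 11.6 in a lung library, lay just under the lowest liver library (1.48, SE 0.11). The metal-binding protein MT4 had a median of 1610 FPKM in liver (690 to 3224), against 438, 89.2 and 208 (3.02, SE 0.18), and MT1 had 497 (71.8 to 2044), below its brain median of 880. MT4 and MT1 are neighbouring genes of a family of short, similar proteins, so the split of reads between them is uncertain.

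Transport and coenzyme genes were higher and lower in similar numbers, where 14.9% of all tested genes with a symbol were higher and 75.9% lower. Of 16 tested solute carriers 7 were higher and 9 lower (6 and 6 at least 2-fold), with a median of -0.59 that moved to 0.04 with quantile normalization. The median of all genes moved as well with that scaling, from -0.67 to -0.135. SLC6A12, a carrier of betaine and GABA, had 7.04 to 39.2 FPKM in liver and at most 0.123 in any other library (3.85, SE 0.12). SLC30A10, which exports manganese, had a median of 16.9 FPKM (5.89 to 29.4), with brain next at 4.47 (3.20, SE 0.11), and SLC40A1, the iron exporter ferroportin, had a median of 116 FPKM (27.7 to 165), against 52.5 in lung, 17.8 in heart and 7.38 in brain (2.198, SE 0.16). The neuronal carriers SLC17A6 and SLC1A2 were among the lower ones (-2.31 and -2.83). Of 16 tested genes for mitochondria, peroxisomes and coenzyme A 7 were higher and 7 lower, a median of 0.05, against 11 higher and 3 lower with quantile normalization. PANK1, which starts coenzyme A synthesis, had 32.2 to 389 FPKM in liver (median 137), against medians of 16.5, 13.2 and 8.92 in brain, heart and lung (3.19, SE 0.16). Its relative PANK4 was lower, with medians of 1.46 FPKM in liver, 55.2 in brain, 4.53 in heart and 3.24 in lung (-2.16, SE 0.14).

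Of 8 tested glucose genes 2 were higher, 5 lower and 1 not called, near the shares of all tested genes (17.9% and 70.3%), and 5 were higher with either other scaling. Among all genes the higher calls rose too, from 2221 to 3835 with upper quartile scaling and 4377 with quantile normalization. GBE1, the branching enzyme of glycogen synthesis, had a median of 53.8 FPKM in liver (28.2 to 114), against 17.6 in heart, 9.17 in lung and 6.90 in brain (2.31, SE 0.13). PDK1, a kinase that inhibits pyruvate dehydrogenase in mitochondria, had 1.85 to 7.53 FPKM in liver (median 3.32), below all 36 others. Their medians were 45.0 in brain, 57.9 in heart and 18.3 in lung (-3.03, SE 0.10, adjusted p = 3.6e-30). The glucose carrier SLC2A3 was lower as well, with medians of 6.61 FPKM in liver, 40.1 in brain, 10.5 in heart and 30.6 in lung (-1.76, SE 0.09).

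Of 10 tested growth and transcription factors of the liver list 5 were higher and 4 lower, where 14.9% and 75.9% of all tested genes with a symbol were so. HGF/SF (-0.06) was not called, and with quantile normalization 6 were higher and 2 lower. That scaling moved the median of all genes from -0.67 to -0.135. IGF-I, the growth factor that liver secretes under growth hormone, had 0.620 to 17.4 FPKM in liver (median 10.2), against medians of 0.656 in brain, 0.122 in heart and 0.287 in lung (2.57, SE 0.20). The HLC livers held 0.620, 1.86 and 3.78 FPKM and the 9 other livers 9.19 to 17.4, without overlap. ESR1, the oestrogen receptor through which yolk precursors are induced and the single gene of that list tested, had a median of 6.24 FPKM (1.57 to 13.1) and under 1 FPKM in every other library (2.53, SE 0.13). C-MET, the receptor of hepatocyte growth factor, had medians of 6.48 FPKM in liver and 5.29 in lung (0.28 against lung alone). GFRA3, a receptor subunit for the neurotrophic factor artemin, had 26.6 to 233 FPKM in liver (median 96.1) and at most 3.14 in any other library (5.65, SE 0.18), and XPNPEP2, a membrane aminopeptidase, had 78.8 to 163 (median 93.4), with at most 0.567 elsewhere (6.48, SE 0.07, adjusted p = 1.3e-50). ESR1 and XPNPEP2 passed the filter through the liver libraries alone, in which they had to be high, so their differences and p-values are a description.

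**Figure D2:**
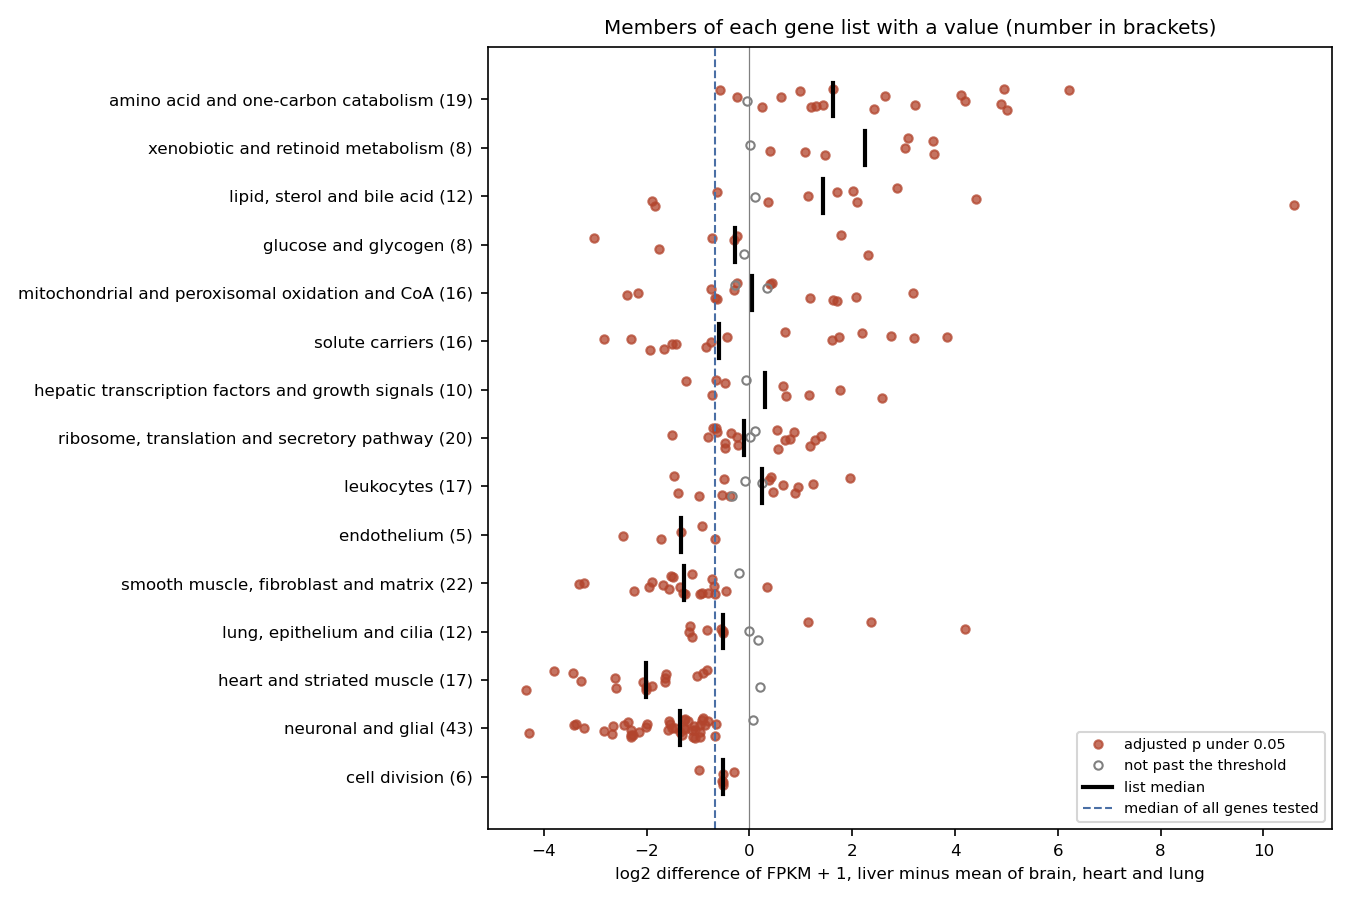
Difference in log2(FPKM + 1), liver minus the mean of brain, heart and lung, for the tested members of each gene list, with the median of all tested genes (-0.67) for comparison. Each point is 1 gene. Amino acid, xenobiotic and lipid genes lie mostly to the right of no difference. Neuronal, heart, matrix, endothelial and cell division genes lie mostly or all to its left, and the remaining lists on both sides.

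Markers of brain and heart were mostly lower in liver, where 75.9% of all tested genes with a symbol were lower and 37.8% lower at least 2-fold. A list that joins genes of lung with those of epithelium and cilia was less so, and it does not measure lung markers alone. Of its 12 tested genes 7 were lower (3 at least 2-fold). In that list 3 were higher, all at least 2-fold, and 2 not called. Its median was -0.51, above that of all genes, and with quantile normalization 6 were higher and 5 lower. The median of all genes moved from -0.67 to -0.135 with that scaling. Of 43 tested neuronal and glial genes 42 were lower in liver, 33 at least 2-fold, and NELL2 was not called (0.07), with a median of -1.35 (-1.25 and -1.18 with upper quartile and quantile scaling). A gene seen in brain alone passes the filter only through the libraries in which it is high, so this count describes the list and supports nothing: without the 5 libraries named above 18 of the 43 were left to test. STMN2 and TUBB3, cytoskeletal proteins of neurons, had at most 1.08 and 0.824 FPKM in liver, against medians of 319 and 262 in brain (-4.30 and -3.42 against the mean of the 3 tissues). GNAO1, a G protein subunit abundant in neurons, had at most 0.159 FPKM in liver, against medians of 59.0 in brain, 12.5 in heart and 0.627 in lung (-3.37, SE 0.09). STMN2 was also above liver in every lung library, at 5.68 to 61.9 FPKM.

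Of 17 tested genes of heart and striated muscle 16 were lower (14 at least 2-fold), GATA5 was not called (0.21), and the median was -2.01 (-1.91 and -1.60 with the other scalings), with the same reservation on the filter. MYH15, a myosin heavy chain, had 0.151 to 3.21 FPKM in liver, against 2001 to 5926 in heart (-10.93 against heart), while its difference from brain was 0.00 and not past the threshold, and the lung median was 1.16. ACTN2, a protein of the muscle Z disc, had at most 0.449 FPKM in liver, against 393 to 935 in heart and up to 31.8 in lung. NEXN, an actin-binding protein of the Z disc, and RYR2, the calcium release channel of heart muscle, were lower than each tissue, with liver medians of 0.124 and 0.0259 FPKM, against 339 and 85.8 in heart and 12.2 and 9.79 in brain. Within liver the TC libraries held 2.02 to 3.21 FPKM of MYH15 and the other groups at most 0.526. For ACTN2 these were 0.297 to 0.449 and at most 0.109. The TC livers overlapped with the others for NEXN and RYR2, and the cause was not tested.

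Connective tissue and vessel genes are also to be read against the 75.9% of tested genes with a symbol that were lower and the 37.8% lower at least 2-fold. Of 22 tested matrix, fibroblast and smooth muscle genes 20 were lower (13 at least 2-fold, median -1.27, or -0.86 and -0.73 with the other scalings), COL13A1 was higher (0.33) and COL6A2 was not called. SPARC, a matrix protein made by fibroblasts and endothelium, had 19.7 to 90.4 FPKM in liver (median 31.7), below all others, whose medians were 287 in brain, 255 in heart and 519 in lung (-3.22, SE 0.15). MMP2, a protease that cuts collagen, had a median of 1.11 FPKM in liver, against 4.46, 36.03 and 52.6 in brain, heart and lung (-3.31, SE 0.14). All 5 tested endothelial genes were lower (4 with upper quartile scaling), 3 of them at least 2-fold, among them the receptors FLT1 (-1.32) and FLT4 (-1.73) and the ephrin EFNB2 (-2.47), whose liver libraries all lay below the others. Without the lung libraries 3 of the 5 were lower, NRP1 was not called (-0.154) and RAMP2 was higher (0.388). The cadherins differed in opposite directions: CDH1 (E-cadherin, of epithelia) had 41.9 to 87.1 FPKM in liver, against 14.7 to 61.8 in lung and at most 1.37 in brain and heart (4.20, SE 0.10), and CDH2 (N-cadherin, of neurons and heart muscle) had 0.182 to 1.12, against medians of 26.4 in brain, 80.9 in heart and 1.79 in lung (-3.55, SE 0.10).

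**Figure D3:**
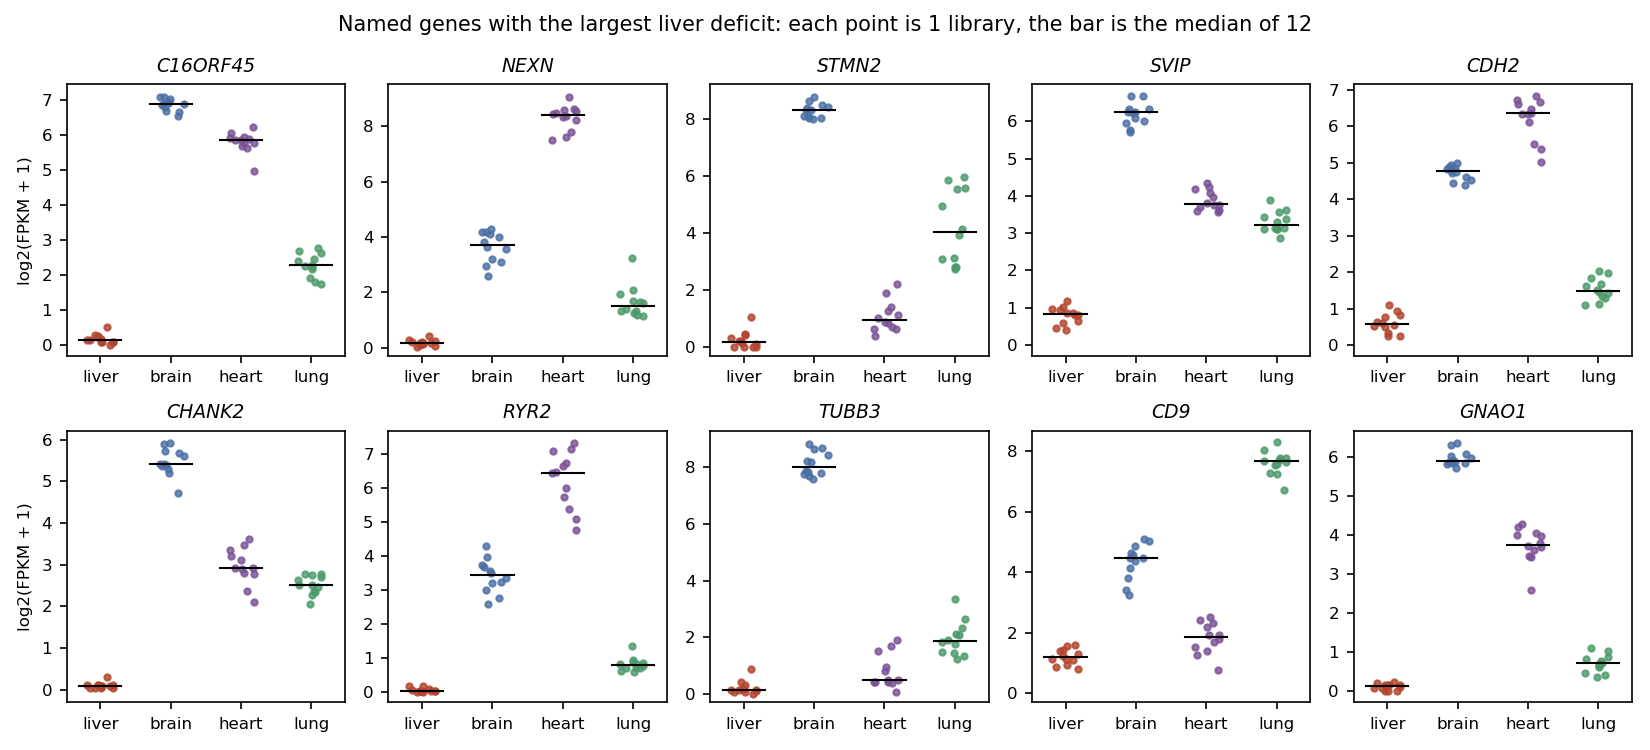
log2(FPKM + 1) of the named genes with the largest liver deficit, by tissue, in liver, brain, heart and lung. Each point is 1 library and each bar the median of 12. The tissue with the highest level differs between panels: brain for STMN2 and TUBB3, heart for NEXN and RYR2, lung for CD9.

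Genes outside the functional lists were among the lowest too. C16ORF45, whose role is not described here, had at most 0.425 FPKM in liver, against medians of 116 in brain, 56.6 in heart and 3.86 in lung (-4.79, SE 0.08, adjusted p = 2.5e-42). SVIP, an inhibitor of protein degradation from the endoplasmic reticulum, had 0.318 to 1.25 FPKM in liver, against 74.6, 12.8 and 8.29 (-3.67, SE 0.07). CD9, a membrane tetraspanin, had a median of 1.28 FPKM in liver and 203 in lung (-3.38, SE 0.15). Without a symbol, ENSGALG00000005843 (-6.60) and ENSGALG00000000620 (-6.57) were lowest, with liver medians of 0.535 and 2.50 FPKM and heart medians of 1686 and 1890.

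Markers of blood and dividing cells differed less, beside 14.9% of all tested genes with a symbol that were higher and 75.9% that were lower. Of 17 tested leukocyte genes 8 were higher (2 at least 2-fold), 6 lower (2 at least 2-fold) and 3 not called, a median of 0.24. These became 12 higher and 3 lower with quantile normalization, which moved the median of all genes from -0.67 to -0.135. The direction moved with the tissues in the mean: 4 higher and 7 lower without brain (median -0.13), and 5 and 7 without heart (-0.1). Without lung 12 were higher and 2 lower (0.95). None of the defining erythroid genes was among the tested genes with a symbol. RSFR, a ribonuclease gene of the leukocyte list, had a median of 176 FPKM in liver (66.4 to 339), against 148 in lung, 41.9 in heart and 19.1 in brain (1.96, SE 0.24), and CD28, a co-stimulatory receptor of T cells, had 4.53 FPKM in liver, 5.03 in lung, 0.465 in heart and 0.814 in brain (1.24, SE 0.17). FGR, LSP1 and CCL20 of the same list were lower in every liver library than in any lung library. They had 4.49 to 14.3, 6.30 to 16.5 and 0.0935 to 1.39 FPKM in liver, against 56.9 to 90.3, 66.1 to 172 and 17.1 to 56.5 in lung. Without lung the difference of CCL20 turned to 0.629. All 6 tested cell division genes were lower than the mean of the others, as 75.9% of all tested genes with a symbol were. None was lower by 2-fold, where 37.8% of those were, and the median of -0.52 lay above that of all genes. With quantile normalization CCNF, CCNB2, UHRF1 and LIG1 turned positive and 1 of the 6 was called lower. In 5 of the 6 the lung median was the highest, as it was for 44.7% of all tested genes. UHRF1 had 1.53 FPKM in liver, 6.55 in lung, 0.959 in brain and 1.32 in heart, and without the lung libraries its difference turned to 0.09.

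The secretory pathway was mixed: of 20 tested genes for translation and secretion 8 were higher (3 at least 2-fold), 10 lower and 2 not called. The shares among all tested genes with a symbol were 14.9% higher and 75.9% lower. The list median of -0.10 turned to 0.43 with upper quartile scaling (12 higher, 3 lower), while the median of all genes moved from -0.67 to -0.27. The oligosaccharyl transferase subunits DDOST (101 FPKM in liver, against 44.9, 23.5 and 76.9 in brain, heart and lung) and DAD1 (195, against 113, 92.6 and 150) were higher by 1.19 and 0.86. WARS, the tryptophan tRNA ligase, was lower, at 4.49 FPKM in liver, against 22.3, 11.1 and 13.4 (-1.50, SE 0.09). RPL27, a ribosomal protein, was not shown to differ (0.02, SE 0.11, adjusted p = 0.87), which lies well above the median of all genes. The other scalings called it in opposite directions, at 0.567 with upper quartile scaling and -0.46 with quantile normalization.

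**Figure D4:**
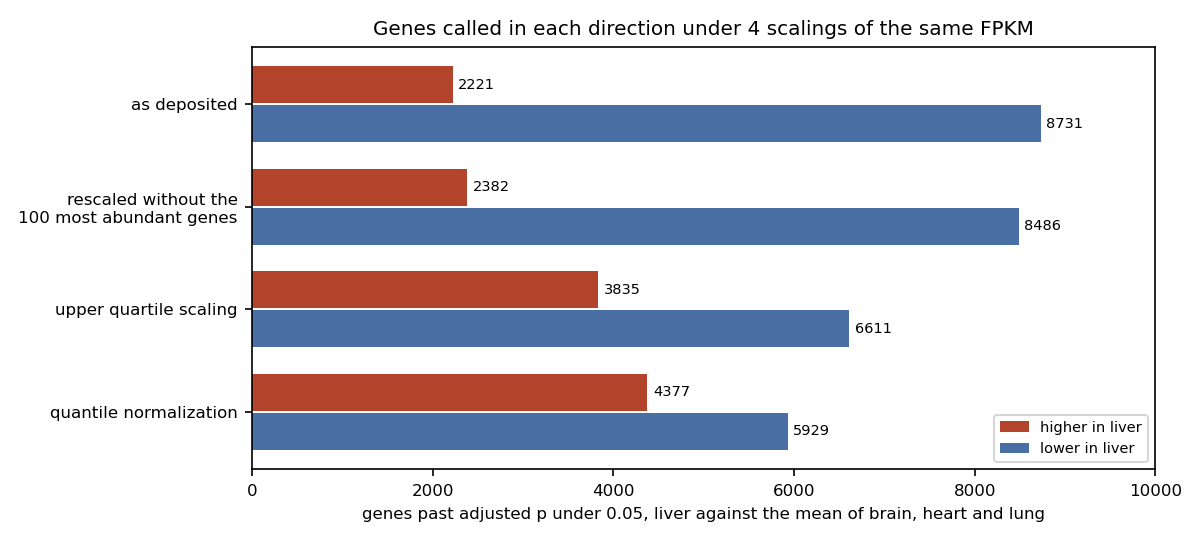
Genes called higher and lower in liver than in the mean of the other tissues under the deposited FPKM and under other scalings. The count of lower genes exceeds that of higher genes in each, from 2221 against 8731 as deposited to 4377 against 5929 after quantile normalization.

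The difference between liver and the other tissues was also taken within each group, with 3 liver and 9 other libraries. At least 2-fold higher were 1187 genes in TC (9.55%), 1135 in HLC (9.14%), 1181 in LTC (9.51%) and 1315 in LC (10.6%). At least 2-fold lower were 5365 in TC (43.2%), 4540 in HLC (36.5%), 3828 in LTC (30.8%) and 3483 in LC (28%). Higher in all 4 groups were 833 genes (6.7%), lower in all 4 were 2925 (23.5%), and 20 (0.161%) were higher in 1 group and lower in another. Of the 670 genes higher than each tissue 638 were at least 2-fold higher in all 4 groups, and of the 954 lower ones 904 were lower in all 4. Both sets were chosen from these same libraries, so their agreement over the groups was largely set by that choice and is a description.

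The larger number of lower genes at 3300 m moved with the scaling. The median difference of all genes was -0.85 in TC, -0.72 in HLC, -0.63 in LTC and -0.53 in LC, and genes at 1 FPKM or more numbered 8498 to 8839 in TC livers, 8858 to 9434 in HLC, 9612 to 9675 in LTC and 9427 to 9625 in LC. After quantile normalization the lower genes were 2439 in TC, 2299 in HLC, 2200 in LTC and 2162 in LC. The part of library composition in the deposited counts was not tested.

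Whether the altitude difference (3300 m minus 670 m) in liver departed from its mean in the other tissues was tested as an interaction. It was more positive in liver for 660 genes (5.31%) and more negative for 2999 (24.1%), with a median of -0.17 over all genes. With upper quartile scaling these were 1425 and 1643, and with quantile normalization 1011 were more negative, so the excess of negative genes cannot be told apart from the scaling. Among the 670 genes higher in liver than in each tissue 139 (20.7%) were more positive and 178 (26.6%) more negative, and among the 954 lower ones 15 (1.57%) and 244 (25.6%). A gene under 1 FPKM outside liver can hardly show an altitude difference there on this scale. Its departure is then close to its difference in liver alone. Of the 670 genes 177 had all other medians under 1 FPKM, and the part of this in the shares was not tested.

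The largest negative departures among the genes named here were those of MYCL and GFRA3. GFRA3 had 26.6 to 49.2 FPKM (median 35.4) at 3300 m, against 143 to 233 (median 189) at 670 m (-2.24, SE 0.17, adjusted p = 1.4e-12). MYCL, a member of the MYC family of transcription factors, had 0.527 to 5.90 FPKM at 3300 m, against 7.43 to 25.4 at 670 m (-2.44, adjusted p = 1.9e-10), and its groups averaged 0.815 FPKM in TC, 3.42 in HLC, 9.75 in LTC and 17.5 in LC. PANK1 had 32.2 to 105 FPKM (median 69.5) at 3300 m, against 170 to 389 (median 226) at 670 m (adjusted p = 1.8e-13). The 6 high-altitude livers of each of these genes lay below all 6 livers from 670 m. The genes are given here for departures in the same values, so this lack of overlap is a description. How many of all genes separate in this way was not counted.

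Genes named in the opposite direction had departures of 0.95 to 2.12. LSS, lanosterol synthase of the cholesterol pathway, had 35.0 to 86.0 FPKM (median 38.7) in liver at 3300 m, against 5.94 to 14.8 (median 7.67) at 670 m (2.12, SE 0.23, adjusted p = 8.3e-09), while brain, heart and lung differed by 0.06, 0.39 and 0.14. RSU1, a Ras suppressor of cell adhesion complexes that is low in liver among these tissues, had 14.5 to 30.0 FPKM at 3300 m, against 6.29 to 9.36 at 670 m (1.49, SE 0.18, adjusted p = 1.2e-07). GBE1 had 58.7 to 114 FPKM at 3300 m, against 28.2 to 49.0 at 670 m (1.20, SE 0.17, adjusted p = 2.7e-06). SPIRE2, an actin nucleator highest in brain, had 8.01 to 17.0 FPKM at 3300 m, against 2.95 to 7.41 at 670 m (0.95, adjusted p = 0.00034). All 6 high-altitude livers lay above all 6 others for these 4 genes, which is again a description, since the same values picked them. No leukocyte gene of 17 and no cell division gene of 6 passed this test in either direction, which 29.5% of all tested genes did.

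**Figure D5:**
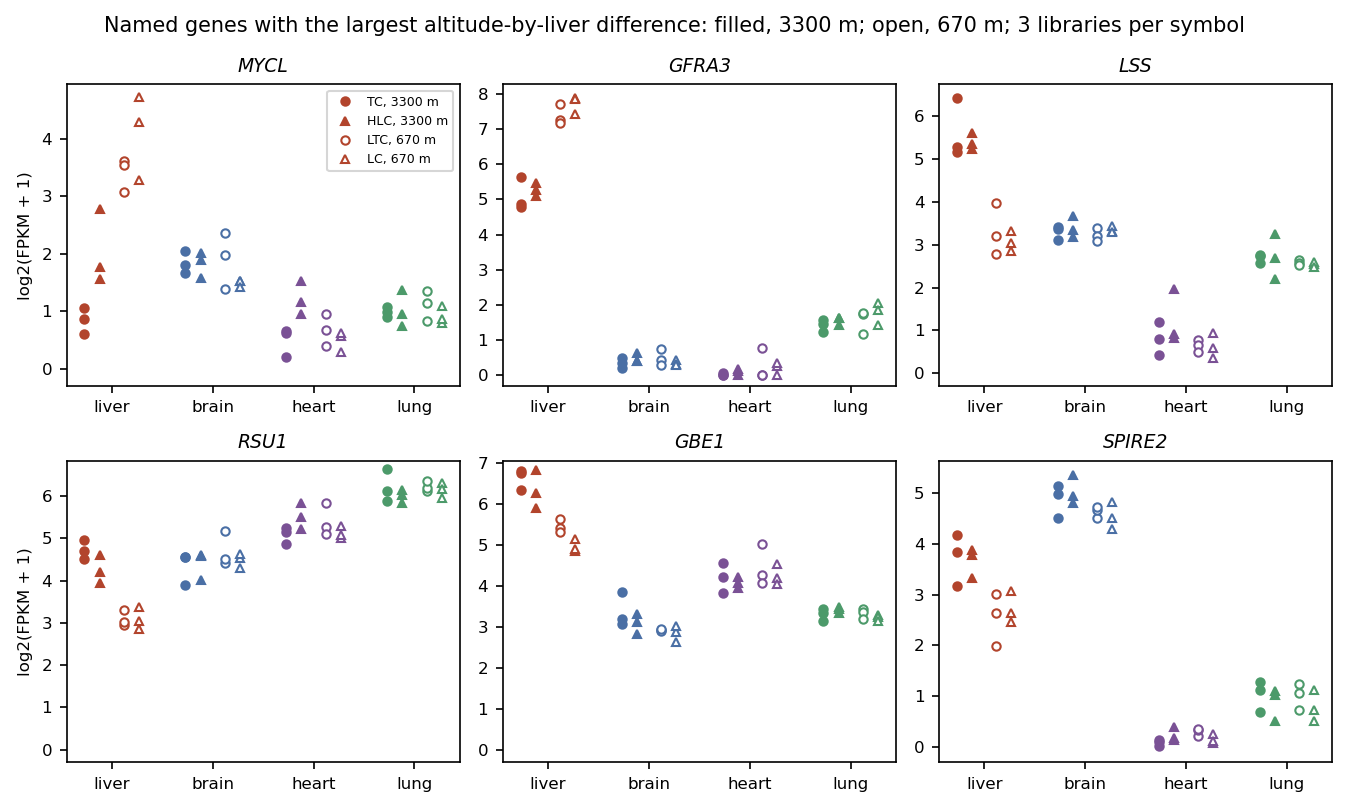
log2(FPKM + 1) of genes with a large altitude difference in liver relative to the other tissues, by tissue and altitude. The panels were picked in each direction among genes with a symbol, so genes not shown can have larger differences than some of those shown. Filled points on the left of each pair are the 6 libraries at 3300 m (TC and HLC), open points on the right the 6 at 670 m (LTC and LC), with circles for Tibetan and triangles for lowland birds. In liver the altitudes do not overlap in any panel, for example 26.6 to 49.2 FPKM at 3300 m against 143 to 233 at 670 m for GFRA3, while in the other tissues they overlap. The same values picked the panels, so this is a description.

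The corresponding test of chicken type (Tibetan minus lowland) passed for fewer genes, 104 more positive in liver (0.837%) and 637 more negative (5.13%). With upper quartile scaling these were 278 and 401, and with a block for the replicate number 212 were more positive. The sources do not tie that number to a bird. Among the 670 liver-high genes 17 (2.54%) were more positive and 54 (8.06%) more negative, and among the 954 liver-low ones 6 (0.629%) and 21 (2.2%). The limit given above for genes under 1 FPKM outside liver holds here too. The counts over all genes also moved with single libraries, over 44 to 191 and 289 to 987 when each library was left out in turn. The more positive genes numbered 44 without liver LTC 2, 56 without liver TC 3, 58 without liver HLC 1, 63 without liver TC 2, 64 without liver LC 3 and 66 without liver LC 2, and 157 without brain HLC 3, 158 without heart HLC 3 and 191 without liver TC 1. The more negative ones numbered 289 without liver TC 2, 330 without liver LTC 2 and 987 without heart HLC 3.

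Several genes past this threshold stood apart in TC or HLC livers, which is a description, since the same values picked them. SEL1L, an adaptor of protein degradation from the endoplasmic reticulum, had 7.52, 5.48 and 3.44 FPKM in TC livers, against 19.3 to 22.5 in HLC, 10.3 to 19.3 in LTC and 14.2 to 26.2 in LC (-1.18, adjusted p = 0.0029). SLC40A1 had 47.5, 36.5 and 27.7 FPKM in TC livers, against 89.0 to 165 in the 9 others (-1.05, adjusted p = 0.005). SDF2L1, a chaperone component of the endoplasmic reticulum, had 8.11 to 18.5 FPKM in the Tibetan livers, against 32.6 to 50.7 in HLC and 14.6 to 36.6 in LC (-0.95, adjusted p = 0.0014). In MYCL the value was -0.95 (adjusted p = 0.0087), lost under quantile normalization (0.0881).

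CHCHD10, a small mitochondrial protein, had 1514, 2554 and 1800 FPKM in TC livers and 568, 539 and 740 in HLC livers, against 1186, 1155 and 1596 in LTC and 2043, 1862 and 1923 in LC. The Tibetan birds were thus higher at 3300 m and lower at 670 m, and the mean over both altitudes departed by 0.72 from the other tissues (adjusted p = 0.010, or 0.0659 with quantile normalization). EIF1, a translation initiation factor, passed (0.56, adjusted p = 0.012) with overlapping liver ranges of 47.9 to 89.3 FPKM in Tibetan and 49.0 to 64.2 in lowland birds, and with Tibetan medians below lowland ones in heart (61.7 against 101) and lung (101 against 144). PLA2G10, a secreted phospholipase, passed with 0.73 (adjusted p = 0.019) at 1.05 to 5.94 FPKM in Tibetan and 0.403 to 1.07 in lowland livers, and was lost without liver LTC 2 (0.0512). PCBD1 passed with 0.48 (adjusted p = 0.040) at 259 to 395 FPKM in Tibetan and 180 to 256 in lowland livers, without overlap, and was lost without any 1 of 9 libraries: liver HLC 1, LC 2, LC 3, LTC 1, LTC 2, TC 1, TC 2 or TC 3, or lung HLC 2 (adjusted p 0.0502 to 0.11). It was also lost without the 5 libraries that held liver transcripts (0.0501), with a pseudocount of 0.1 (0.0535), with rescaling without the 100 most abundant genes (0.0672) and with quantile normalization (0.103).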

How the data were processed

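RNA was measured in 48 libraries of 4 tissues. Per the labels and the submitters' processing notes, RNA was extracted with TRIzol, libraries were made with a TruSeq kit, and TopHat and Cufflinks 2.2.1 were used on galGal4; the annotation release, read filters, strand setting and options: not given in the sources used here. The deposited values are FPKM per gene for 17108 Ensembl genes. They hold no read counts, so no count model or counting interval was used. All 48 columns were used.

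Members and gene lists were chosen with earlier results of these data known. Symbols came from a supplementary gene list of the genome paper given with the series, which does not describe these libraries (1182 genes, 6.91% of the table, mostly from selected regions), of which 1124 lie on the same chromosome in RefSeq (GRCg7b), 6 on another, 12 are unplaced and 40 have no entry. The tables used pair no Ensembl IDs with sequences, so none are shown.

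Genes that reached 1 FPKM in 12 or more libraries were fitted with limma 3.58.1 in R 4.3.3 on log2(FPKM + 1), with 1 mean per tissue and the group as a block, or with 16 means of tissue and group for within-group differences and interactions. Moderation used a trend, and tests were 2-sided. On simulated data 99.5% of 200 changed genes were recovered for liver against the others (4.78% of calls false). For altitude by liver 90% were (5.76% false), both over 12424 genes. The simulation had independent noise, 2-fold changes balanced up and down, and no tissue difference in the other genes. In the real data 88.2% of genes were called for liver against the others, so these rates cannot be carried over to them. Library measures used permutation tests with 100000 resamples.

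Named were, among genes with a symbol, the 10 highest and 10 lowest that passed against each tissue, the 10 most abundant in liver, up to 6 per list by size of difference, and the 4 largest per direction for each interaction, plus 2 IDs without a symbol per direction. A few genes that the rule picks are left out of the text. List members named beside these (QDPR, SDSL, DPYD, ABAT and those given as exceptions to a list) were chosen after their values were seen. Alternatives were pseudocount 0.1, other filters, upper quartile and quantile scaling, rescaling without the 100 most abundant genes, no trend, 2 levels in place of 4 tissues, the replicate block, leaving out a tissue, and leaving out each library.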

Additional observations from a re-analysis of the deposited data

Results flagged for a closer look

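The altitude difference (3300 m minus 670 m) differed between liver and the mean of brain, heart and lung, by the limma interaction test, for 660 genes in the positive and 2999 in the negative direction, and the difference of chicken type (Tibetan minus lowland) for 104 and 637. For altitude the largest named departures were LSS 2.12, RSU1 1.49, GBE1 1.20 and SPIRE2 0.95 in the positive direction, and MYCL -2.44 and GFRA3 -2.24 in the negative one. For chicken type they were PLA2G10 0.73, CHCHD10 0.72, EIF1 0.56 and PCBD1 0.48, and SEL1L -1.18, SLC40A1 -1.05, MYCL -0.95 and SDF2L1 -0.95.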

How the results depend on the processing

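Of the comparisons of a named gene with the mean of the other tissues under an alternative that leaves out no single library, 1551 kept their direction and side of the threshold, 30 lost the call, 10 gained it and 19 turned direction; with single libraries left out 5172 kept both and none changed. For the named interactions 131 kept both and 6 lost the call, and with single libraries left out 662 kept both and 10 lost it (PCBD1 and PLA2G10, chicken type). The causes were not tested, beyond fewer genes tested under a stricter filter.

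Turned differences with quantile normalization were RPL27 -0.456, ACTB -0.063, TCEB3 -0.240, FN3KRP 0.353, CCNF 0.187, CCNB2 0.186, UHRF1 0.199 and LIG1 0.439. With upper quartile scaling they were FN3KRP 0.192 and LIG1 0.009. Without brain they were TCEB3 -0.272 and FN3KRP 0.151, without heart ACTB -0.080 and MT1 -0.005, and without lung KRT19 0.184, RAMP2 0.388, CCL20 0.629, UHRF1 0.086 and LIG1 0.013.

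Counts that moved by over 1.5 times were, with a pseudocount of 0.1, genes lower than each tissue at 1970, and with a mean FPKM of at least 5, genes lower than the mean at 5560. With quantile normalization 4377 genes were higher than the mean, 2188 lower at least 2-fold and 387 lower than each. Higher and lower within TC were then 1898 and 2439, within HLC 1782 and 2299, lower within LTC 2200 and within LC 2162, and the more negative interactions 1011 for altitude and 170 for chicken type. With upper quartile scaling 3835 were higher, 2725 lower at least 2-fold, 567 lower than each, 2008 and 3346 higher and lower within TC, 1744 and 2830 within HLC, and the interactions 1425 and 1643 for altitude and 278 and 401 for chicken type.

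With single libraries left out the counts ran over 2062 to 2268 higher and 8197 to 8767 lower than the mean, 576 to 674 and 920 to 994 for each tissue, 518 to 727 and 2303 to 3349 for altitude, and 44 to 191 and 289 to 987 for chicken type. Without the 5 libraries that held liver transcripts, a choice made after seeing the data, 2189 were higher and 7965 lower.

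Libraries of liver and another tissue with the same replicate number deviated together, with small correlations (36 pairs, median 0.158, over 0.1 in 28). In 35 of the 36 pairs the own number correlated best. The sources do not say that a number marks a shared bird, and the main fits did not use it. With a replicate block 2233 genes were higher and 8760 lower, and 212 type interactions were more positive. Depth is known only relatively, so values under 1 FPKM bear an unknown counting error.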
